A study of Homo sapiens with 9 samples.

Results

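The regions described here are promoters of DND-41 cells that carried H3K27ac but no peak of either factor profiled in the series, RUNX1 or BRG1. They were chosen by measured positions, as H3K4me3 peaks under 3000 bp wide that overlapped a DMSO H3K27ac peak by at least 1 bp and overlapped no RUNX1 and no BRG1 peak. The rule took 3781 of the 12834 H3K4me3 peaks (29.5%), which is 34.1% of the 11074 acetylated H3K4me3 peaks under 3000 bp. They are called promoters from H3K4me3 alone, since no gene annotation of the build was used here. They are called factor-free below, which says only that no RUNX1 or BRG1 peak was called there, not that the factors were absent. The other acetylated H3K4me3 peaks under 3000 bp held RUNX1 only (3428), BRG1 only (643) or both factors (3222).

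DND-41 is an established human line of T-cell acute lymphoblastic leukemia (T-ALL), and its chromatin was profiled by CUT&RUN, in which an antibody directs a nuclease to its target and the released fragments are sequenced. The H3K4me3, RUNX1 and BRG1 libraries had no treatment in their titles or characteristics. The H3K27ac libraries came from cells given the vehicle DMSO or 100 nM ACBI-1, for a time that is not given in the sources used here. Each target and condition had 1 peak list from 1 library, so the differences between lists rest on single libraries and carry no p-value. The lists hold positions without scores or counts, so the read depth behind each is unknown. The RUNX1 library has an input as its named control and the other libraries have IgG controls, none of which were analysed here. Intervals are exact Clopper-Pearson 95% intervals over peaks unless another is named, and they hold counting error alone. Positions are given in hg19 and start from 1.

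H3K4me3 is placed on nucleosomes beside active start sites by the SET1 and MLL methyltransferase complexes, and the start site itself is usually depleted of nucleosomes. H3K27ac is written by the acetyltransferases p300 and CBP at active promoters and enhancers. BRG1 (SMARCA4) is an ATPase of the SWI/SNF complexes, which slide and evict nucleosomes, and RUNX1 binds DNA together with CBFB and is a main regulator of T-cell development. ACBI-1 brings the SWI/SNF ATPases and PBRM1 to a ubiquitin ligase for degradation.

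The factor-free promoters were narrower than the other acetylated H3K4me3 peaks under 3000 bp. Their median width was 1097 bp (quartiles 468 and 1634 bp, range 168 to 2996 bp). The medians were 1500 bp for peaks with RUNX1 only, 1453 bp for peaks with BRG1 only and 1700 bp for peaks with both. Peaks under 300 bp made up 15.2% of the factor-free promoters, 5.51% of those with RUNX1 only and 3.17% of those with both factors. At the other end, 3.23% of the factor-free promoters and 13.3% of those with both factors measured 2500 bp or more. A wider peak has more room to overlap a factor peak, so the rule itself favours narrow members and these widths are given as a description. They are also bounded above by the rule: 111 further acetylated peaks with neither factor were 3000 bp or wider. The widest member, chr17:29034795-29037790, measured 2996 bp, and the narrowest peak left out by width, chr12:112278470-112281474, measured 3005 bp. Both still overlapped H3K27ac in ACBI, as did all 44 members within 250 bp below the threshold and all 31 such peaks within 250 bp above it.

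**Figure D1:**
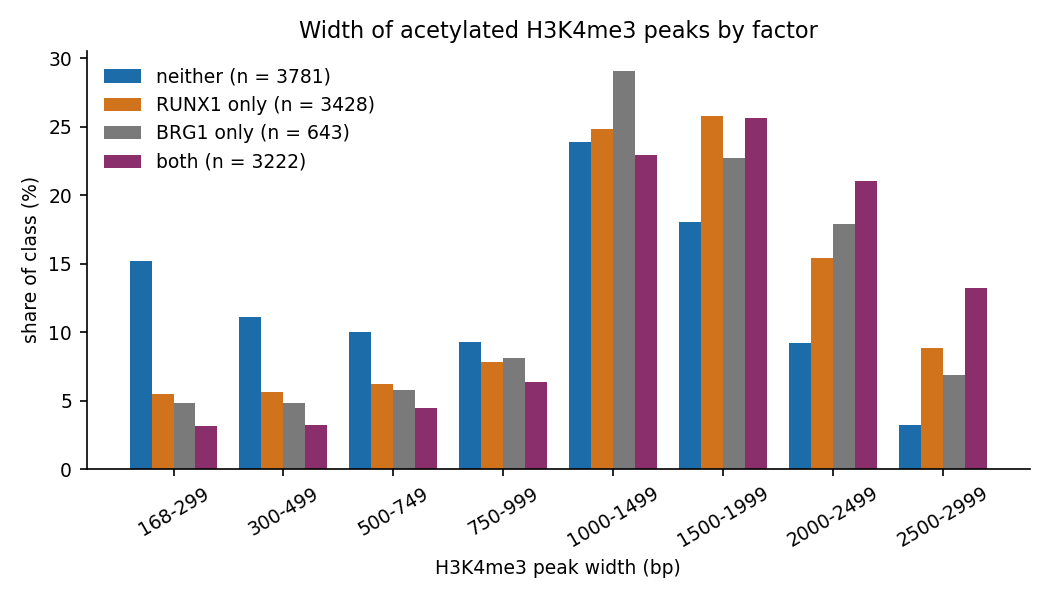
Share of each class of acetylated H3K4me3 peaks under 3000 bp (vertical axis, percent) by peak width in bp (horizontal axis); bars are the 4 classes by factor overlap and each class adds up to its n. The factor-free promoters have the tallest bars in each of the 4 bins under 1000 bp and the shortest in each of the 3 bins from 1500 bp up.

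Factor peaks were often not far away. The gap from a factor-free promoter to the nearest RUNX1 peak had a median of 22288 bp (quartiles 3824 and 71978 bp), and that to the nearest BRG1 peak a median of 76836 bp (quartiles 22154 and 209277 bp). RUNX1 was the nearer factor at 3213 promoters (85.0%), but the BRG1 list is only 37.4% as long as the RUNX1 list. With the factors pooled, 553 promoters (14.6%, 13.5 to 15.8) had a factor peak under 1 kb away, 1421 (37.6%, 36.0 to 39.1) had one under 10 kb away and 583 had none within 100 kb. At 189 promoters both factors lay under 1 kb away. Absence of overlap chose these promoters, so the distances describe them and test nothing.

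The nearest factor peaks touched the promoters or lay a few bases off. At chr2:225448257-225450185, a peak of 1929 bp, a RUNX1 peak abutted the promoter and the BRG1 peak lay 5 bp away. H3K27ac covered all of it in DMSO and 989 bp in ACBI. At chr2:765770-767163 a RUNX1 peak was also adjacent, BRG1 lay 347 bp away, and H3K27ac covered all 1394 bp in both conditions. The third, chrX:153607681-153608697, had RUNX1 and BRG1 each 2 bp away, with 442 of its 1017 bp acetylated in DMSO and none in ACBI. The next were chr6:31553345-31553559, fully covered in both conditions, and chr19:54641358-54642677, where 184 of 1320 bp were covered in DMSO and none in ACBI. In all, 27 promoters had a factor peak under 50 bp away, and 15 of these (55.6%, 35.3 to 74.5) overlapped H3K27ac in ACBI. On the other side of the rule, 31 acetylated peaks were overlapped by under 50 bp of factor peak, and 18 of them (58.1%, 39.1 to 75.5) did so. The values on either side of the overlap rule lay within each other's intervals.

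At the far end, the most isolated promoters lay megabases from any factor peak, and each of the 5 farthest still overlapped H3K27ac in ACBI. A peak of 396 bp, chr12:38710593-38710988, lay 3827099 bp from RUNX1 and 3827664 bp from BRG1, and both H3K27ac lists covered it fully. Its nearest H3K4me3 neighbour was the second on this list, chr12:40014007-40014423, where cover fell from 417 bp in DMSO to 168 bp in ACBI. The next on the list stand near each other on chromosome 4, chr4:44679798-44681761 with 1592 bp covered in DMSO and 1438 bp in ACBI, and chr4:44727197-44728847 with 1441 and 974 bp. The last was chr12:34175405-34176298, with 814 bp covered in DMSO and 628 bp in ACBI.

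**Figure D2:**
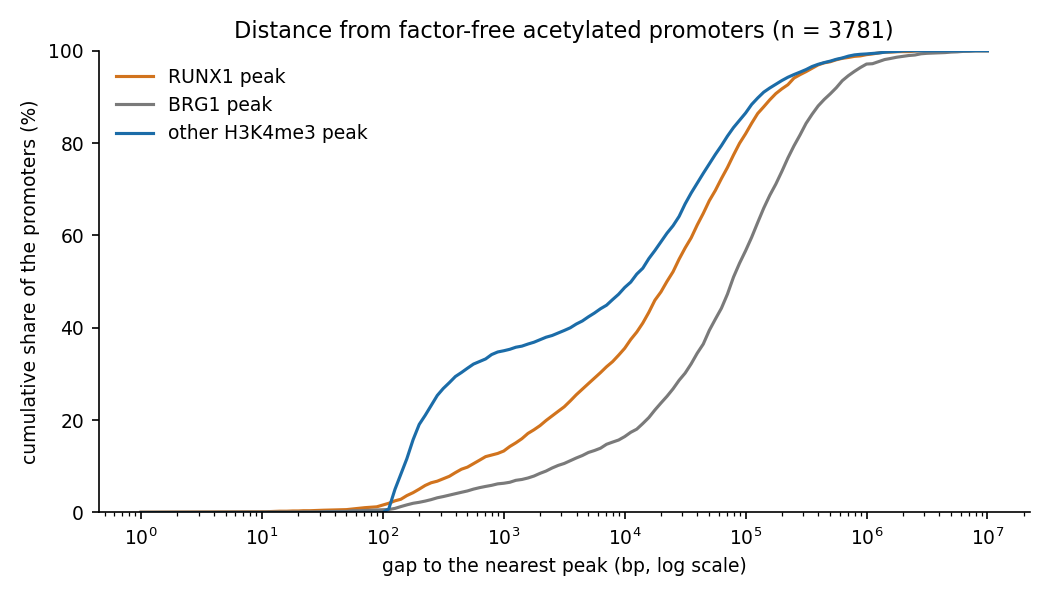
Cumulative share of the 3781 factor-free promoters (vertical axis, percent) whose nearest RUNX1, BRG1 or other H3K4me3 peak lies within a given edge-to-edge gap (horizontal axis, bp, log scale). The H3K4me3 curve starts at 111 bp and reaches 35.0% by 1 kb, where the RUNX1 curve stands at 13.3% and the BRG1 curve at 6.32%.

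Many of the narrow members lay close beside another H3K4me3 peak. Another H3K4me3 peak lay under 1 kb away at 1324 of the 3781 promoters (35.0%, 33.5 to 36.6). The share was 20.9% (19.6 to 22.3) of peaks with RUNX1 only, 17.1% (14.3 to 20.2) with BRG1 only and 19.5% (18.1 to 20.9) with both factors. Part of this went with width: at the same H3K4me3 widths the factor-free promoters exceeded those with RUNX1 only by 5.25 percentage points (stratified 95% interval 3.30 to 7.19). They exceeded those with BRG1 only by 10.6 points (6.58 to 14.7) and those with both by 3.78 points (1.64 to 5.92). Same widths means 10 width bins of about equal size, weighted by the compared classes pooled. No promoter had a neighbour nearer than 111 bp, which was the smallest gap in each of the other classes too. The median gap of the 1324 members to this neighbour was 188 bp. Members with such a neighbour had a median width of 457 bp and those without one 1348 bp. Of the members under 500 bp, 70.7% had a neighbour under 1 kb away, and of those of 1000 bp or more, 14.6% did.

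The neighbour itself overlapped RUNX1 or BRG1 in 613 of the 1324 pairs (46.3%), beside 64.4% of all H3K4me3 peaks. In 150 (11.3%) pairs a factor peak reached into the gap. The neighbour was the wider peak in 61.6% of pairs, and the pair together spanned a median of 1952 bp. H3K27ac bridged most of these gaps: the DMSO peaks covered 85.2% of the gaps in full and the ACBI peaks 55.7%. When all H3K4me3 peaks under 1 kb apart were joined, 716 of the 3781 promoters (18.9%) fell in a joined stretch that held a factor. The other 3065 (81.1%) lay in 2776 stretches without RUNX1 or BRG1. For those 716, the absence of a factor holds for the called H3K4me3 peak and not for the stretch around it.

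The most crowded promoters lay together in 1 stretch of chromosome 6. The member with most neighbours, chr6:26223665-26225018, had 22 other H3K4me3 peaks within 100 kb and was fully covered by H3K27ac in DMSO and in ACBI. The next 3, chr6:26215735-26216772, chr6:26217225-26218401 and chr6:26218518-26218733, had 21 neighbours each and shared 1 DMSO H3K27ac peak of 5817 bp. DMSO peaks covered 1038, 1177 and 216 bp of them, and ACBI peaks 917, 832 and 127 bp. The fifth, chr6:26204889-26206794, had 20 neighbours and kept its full 1906 bp of cover. No RUNX1 peak lay nearer than 32300 bp to any of the 5. Across all members the median number of H3K4me3 neighbours within 100 kb was 2.

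The DMSO H3K27ac peaks on the factor-free promoters were on the whole wider than the promoters. The widest DMSO peak on each had a median width of 1818 bp (quartiles 1068 and 3270 bp), and DMSO H3K27ac covered a median of 95.1% of the promoter's length. It covered 1655 promoters (43.8%) in full and under 50% of the length of 341 (9.02%), for which the name acetylated rests on a partial overlap. The 3781 promoters lay on 3390 different DMSO peaks, and 701 of them shared their DMSO peak with another member, so they are not all independent. A factor peak lay elsewhere in the same DMSO H3K27ac peak at 830 promoters (22.0%).

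Most factor-free promoters still overlapped H3K27ac after ACBI-1. An ACBI H3K27ac peak overlapped 2957 of the 3781 by at least 1 bp (78.2%, 76.9 to 79.5), and these are called kept. The remaining 824 (21.8%, against 16.0% of all acetylated H3K4me3 peaks) are called lost, which says only that no ACBI peak was called there. Of all 11907 acetylated H3K4me3 peaks of any width, 84.0% were kept. Among the 927 H3K4me3 peaks under 3000 bp without DMSO H3K27ac, 7.66% (6.03 to 9.56) overlapped an ACBI peak. With at least 50% of the promoter's length required, 64.5% (62.9 to 66.0) of the factor-free promoters were kept, beside 67.1% of all acetylated H3K4me3 peaks. With an ACBI peak under 1 kb away accepted, the shares were 84.1% (82.9 to 85.3) and 87.3%. The ACBI list is shorter than the DMSO list, with 52967 peaks against 90495, and the depth of neither library is known, so lower depth and lower acetylation cannot be told apart.

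Retention rose with H3K4me3 width, though not evenly. It was 64.5% (60.5 to 68.4; n = 575 peaks) under 300 bp, 67.1% (62.4 to 71.6; n = 420) from 300 bp, 59.6% (54.5 to 64.6; n = 379) from 500 bp and 75.1% (70.3 to 79.6; n = 350) from 750 to under 1000 bp. Above that it was 82.6% (80.0 to 85.0; n = 904) from 1000 bp, 90.9% (88.5 to 93.0; n = 682) from 1500 bp, 94.0% (90.9 to 96.2; n = 349) from 2000 bp and 98.4% (94.2 to 99.8; n = 122) from 2500 bp. The 3 bins under 750 bp showed no steady rise, and from 750 bp up each bin was higher than the one before it. Split by width into 4 groups of about equal size, 65.8% of the narrowest 944 promoters (168 to 466 bp) and 92.9% of the widest 947 (1634 to 2996 bp) were kept, a difference of 27.1 points (Newcombe 95% interval 23.7 to 30.6). A wide interval is more likely to be touched by any peak at all, and the difference fell to 13.1 points (8.94 to 17.2) when 50% of the length had to be covered.

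**Figure D3:**
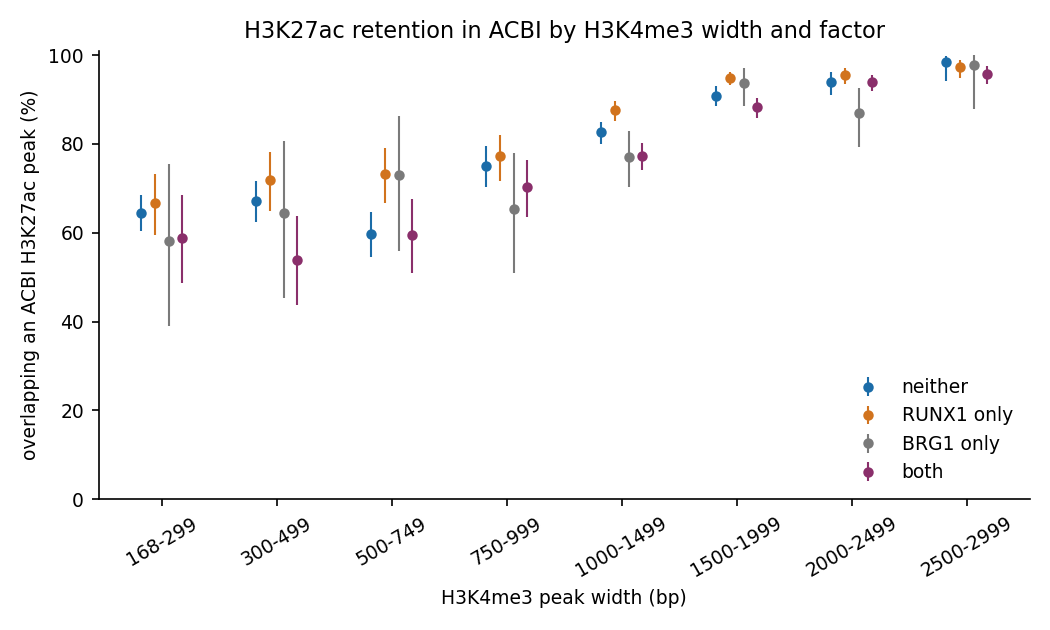
Share of acetylated H3K4me3 peaks overlapping an ACBI H3K27ac peak by at least 1 bp (vertical axis, percent) by H3K4me3 width (horizontal axis, bp) for the 4 factor classes; points are shares and bars exact 95% intervals over peaks. The factor-free promoters run from 64.5% under 300 bp to 98.4% from 2500 bp, and each class is higher in its widest bin than in its narrowest.

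Set beside the factor-bound classes, the order of retention depended on width and on the rule for a kept peak. The crude shares kept at 1 bp of overlap were 78.2% for the factor-free promoters and 87.8% (86.7 to 88.9) for RUNX1 only. They were 81.3% (78.1 to 84.3) for BRG1 only and 83.5% (82.1 to 84.7) for both factors. With at least 50% of the length covered, they were 64.5% for factor-free, 72.4% for RUNX1 only, 60.2% for BRG1 only and 62.0% for both. With an ACBI peak under 1 kb away, they were 84.1%, 90.1%, 82.6% and 85.8% in the same class order. The factor-free promoters were lowest only at 1 bp of overlap, with intervals overlapping those for BRG1 only in each case. The differences below use 1 bp of overlap. At the same H3K4me3 widths, the factor-free promoters stayed below those with RUNX1 only, at 81.0% against 85.1%, a difference of -4.03 points (stratified 95% interval -5.76 to -2.30). Against those with both factors the sign turned with H3K4me3 width: the crude difference was -5.25 points (Newcombe interval -7.08 to -3.41) and that at the same H3K4me3 widths was 4.14 points (2.13 to 6.14). It was 3.70 points (1.89 to 5.50) when both the H3K4me3 and the DMSO H3K27ac widths were matched, -1.14 points (-2.85 to 0.567) when only the DMSO H3K27ac widths were, and -3.82 points (-5.56 to -2.08) at the same share of length covered in DMSO. The sign thus depended on what was matched. Against BRG1 only, the difference was -3.13 points (-6.26 to 0.313) crude and 2.97 points (-1.15 to 7.08) at the same H3K4me3 widths. It was -3.82 points (-6.71 to -0.931) at the same DMSO H3K27ac widths, -4.12 points (-7.17 to -1.07) at the same DMSO cover and -0.260 points (-4.31 to 3.79) with both widths matched. These intervals hold no spread between cultures, so no class is shown to differ in its response.

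Retention also went with the width of the acetylated stretch in DMSO. Of the 258 factor-free promoters whose widest DMSO H3K27ac peak measured under 500 bp, 26.7% (21.4 to 32.6) were kept, and of the 556 on a DMSO peak of 5000 bp or more, 92.4% (89.9 to 94.5) were. Standardised to the H3K4me3 widths of all members, these shares were 25.7% and 94.1%. Within members under 500 bp of H3K4me3, retention was 41.0% (34.1 to 48.3; n = 195 peaks) on DMSO peaks under 1000 bp and 77.4% (73.9 to 80.7; n = 602) on those of 2000 bp or more. Within members of 1000 to under 2000 bp it was 63.1% (57.8 to 68.2; n = 347) and 95.6% (93.5 to 97.2; n = 525). Both widths therefore went with retention when the other was held in a range. The widest H3K4me3 class on the narrowest DMSO peaks had only 11 members, of which 5 were kept.

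**Figure D4:**
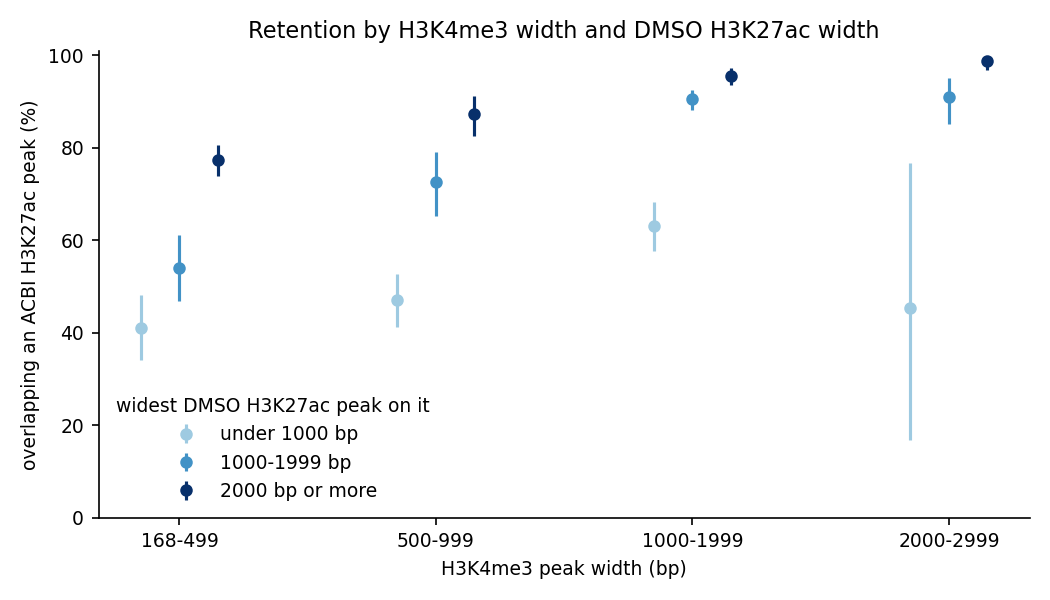
Share of factor-free promoters overlapping an ACBI H3K27ac peak (vertical axis, percent) by H3K4me3 width (horizontal axis, bp) and by the width of the widest DMSO H3K27ac peak on them (colours); points are shares and bars exact 95% intervals over peaks. In each width range the promoters on DMSO peaks of 2000 bp or more are the highest, from 77.4% in the narrowest range to 98.7% in the widest.

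Retention was then set beside the neighbours, with and without another peak nearby. Promoters with no other H3K4me3 peak within 1 kb were kept in 81.5% of cases (79.9 to 83.0; n = 2457 peaks) and those with one in 72.1% (69.6 to 74.5; n = 1324). At the same H3K4me3 widths the values were 76.9% (stratified interval 74.98 to 78.8) and 79.7% (77.4 to 82.0), in the opposite order and with overlapping intervals. The paired peaks lay on wider DMSO peaks, with a median of 2902 bp against 1501 bp. Promoters with a factor peak under 1 kb away were kept in 66.9% of cases (62.8 to 70.8) and those at 100 kb or more in 81.6% (78.3 to 84.7). Between them the shares were 76.5% (73.5 to 79.3) at 1 to 10 kb and 81.4% (79.5 to 83.2) at 10 to 100 kb. At the same widths the share was 72.8% (68.8 to 76.8) under 1 kb and 79.9% (77.4 to 82.5) at 1 to 10 kb. It was 77.8% (75.7 to 79.8) at 10 to 100 kb and 79.5% (76.1 to 82.9) at 100 kb or more. Promoters with a factor elsewhere in their DMSO peak were kept more often at the same H3K4me3 widths, in 82.5% of cases (79.7 to 85.3) against 76.4% (74.8 to 77.9). Their DMSO peaks had a median width of 4242 bp against 1519 bp, and DMSO peak width was not matched here. Promoters in joined stretches with and without a factor were kept in 78.3% (75.03 to 81.6) and 78.6% (77.1 to 80.1) at the same H3K4me3 widths. Crude retention thus rose with distance from a factor peak. At the same H3K4me3 widths it was lowest under 1 kb, with no steady order at the longer distances. The promoters with a factor nearby had a median width of 517 bp and the distant ones 1235 bp.

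H3K27ac cover was lower in ACBI over the class. The median share of length under H3K27ac was 95.1% in DMSO and 71.4% in ACBI, and over the summed length of all members it was 82.8% and 62.7%. Over all 11907 acetylated H3K4me3 peaks of any width the medians were 94.0% and 71.2%. The whole H3K27ac lists covered 127.2 Mb in DMSO and 70.8 Mb in ACBI. Lower cover is thus not particular to the factor-free promoters. The counts that follow are of members only and are not given here for all acetylated peaks. Cover was lower in ACBI at 2404 promoters (63.6%), which are 1580 (41.8%) that kept some cover and the 824 lost ones, equal at 902 (23.9%) and higher at 475 (12.6%). Of the 902 with equal cover, 895 were covered in full in both lists. Kept promoters alone had a median cover of 98.7% in DMSO and 84.8% in ACBI. At 2303 of these 2957 (77.9%) the widest ACBI peak was narrower than the widest DMSO peak, and at 651 (22.0%) it was wider. The ratio of summed ACBI to summed DMSO cover was 0.758 for the factor-free promoters, beside 0.786 for RUNX1 only, 0.704 for BRG1 only and 0.702 for both factors.

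H3K27ac cover took different forms at narrow and wide promoters. Under 300 bp the members were mostly covered wholly or not at all: 314 of 575 were fully covered in ACBI and 204 had no cover. From 2000 to under 2500 bp, 54 of 349 were fully covered and 21 had none, so most were covered in part. DMSO cover also differed by width, with a lower quartile of 100% under 300 bp and 73.9% from 2000 to under 2500 bp. A narrow promoter leaves little room for partial cover, and whether the contrast holds a form of loss under ACBI-1 was not tested. The median ACBI cover was lowest from 500 to under 750 bp, at 47.9% against 96.3% in DMSO, and 153 of those 379 promoters had none.

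**Figure D5:**
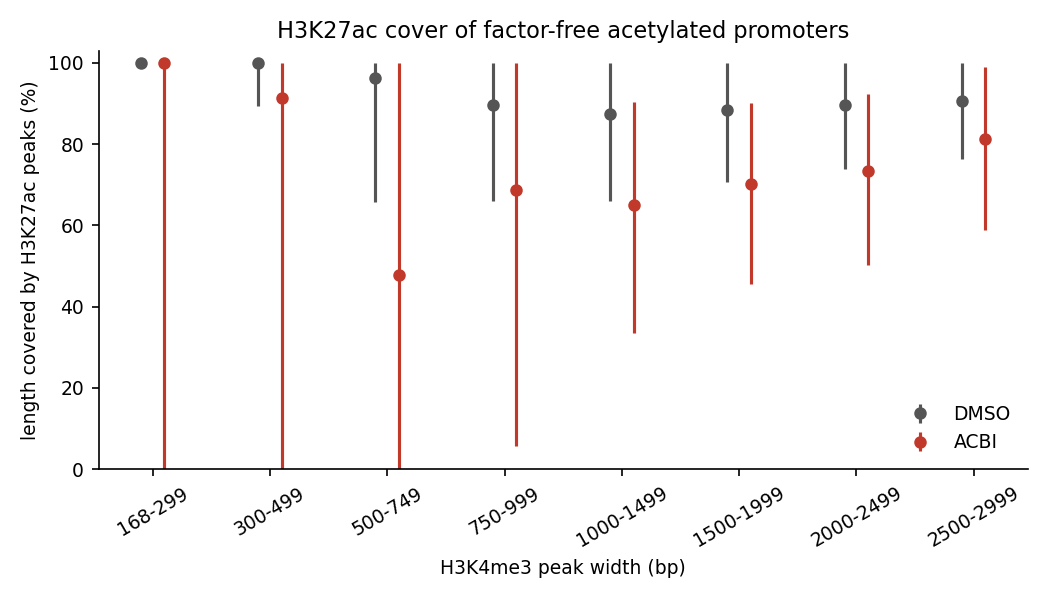
Share of each factor-free promoter's length covered by H3K27ac peaks in DMSO and in ACBI (vertical axis, percent) by H3K4me3 width (horizontal axis, bp); points are medians over promoters and bars run from the lower to the upper quartile. The ACBI medians are 100% under 300 bp, fall to 47.9% from 500 bp and stand at 81.4% from 2500 bp.

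The 5 widest factor-free promoters were all kept, with ACBI cover between 47.6% and 100% of their length. The 2996 bp peak on chromosome 17 had 2664 bp of cover in DMSO and 2673 bp in ACBI. Cover of chr3:88197859-88200850 was complete, 2992 bp, in both conditions. At chr16:9054427-9057409, with a RUNX1 peak 363 bp away, it went from 2983 to 2553 bp. The largest drop among the 5 was at chr2:3622298-3625280, from 2567 to 1421 bp, while chr12:118497647-118500624 went from 2853 to 2696 bp. At the lower end, the 5 narrowest kept promoters all measured 168 bp, which was the smallest width in each of the other classes too. Each of chr1:149888036-149888203, chr1:234740627-234740794, chr11:17301404-17301571 and chr11:45828678-45828845 was covered in full in both conditions, and chr1:85040272-85040439 had 112 bp of cover in DMSO and 102 bp in ACBI. All 5 had another H3K4me3 peak under 1 kb away, and 4 of them one within 218 bp.

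Lost promoters were narrow, with exceptions. Their median H3K4me3 width was 594 bp against 1238 bp for kept ones, and the median width of the DMSO peak on them was 1004 bp against 2027 bp. Many lay near acetylation that persisted: 224 of the 824 (27.2%) had an ACBI peak under 1 kb away, and at 236 (28.6%) the same DMSO peak overlapped an ACBI peak elsewhere along its length. The 5 widest lost promoters had DMSO cover of 23.3% to 73.0% of their length, below the median of the members. The widest, chr17:7475365-7477932 (2568 bp), had 1045 bp of cover in DMSO, and the nearest ACBI peak was 3285 bp away. At chr6:36646422-36648946, 1843 of 2525 bp were covered by more than 1 DMSO peak, the widest of 5359 bp. A RUNX1 peak lay 1409 bp away, and the nearest ACBI peak was 2372 bp away. The others stood more alone: chr5:78531315-78533787 (1160 of 2473 bp covered in DMSO) was 249985 bp from an ACBI peak, chr9:109624649-109627102 (1458 of 2454 bp) 418495 bp and chr12:53399231-53401642 (562 of 2412 bp) 60036 bp.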

How the data were processed

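Peak lists of 5 of the 9 samples were used: H3K4me3, BRG1, RUNX1, and H3K27ac in DMSO and in ACBI, grouped by title. The 4 IgG or input samples were not analysed here. The authors deposited chromosome, start, end and name of each peak, in hg19 per the submitters' processing notes, which name MACS2 and SEACR. RUNX1 peaks are from MACS2 and H3K27ac peaks are broad peaks at q below 0.01, per the file headers. For the aligner and the use of controls, the sources used here give nothing. The settings of the H3K4me3 and BRG1 lists are not stated. The names of these lists hold tags that may be thresholds, which were not interpreted. The deposited lists hold no score, p-value or count, so depth is unknown. A shallower library can give fewer and narrower peaks. The ACBI H3K27ac list has 52967 peaks with a median width of 754 bp, and the DMSO list 90495 with a median of 741 bp. A part of depth in these values was not tested.

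Overlap, cover and edge-to-edge gaps were computed with scipy 1.17.1, pandas 2.3.3 and numpy 2.4.6 under Python 3.11.15, and plotted with matplotlib 3.10.9. Overlap, cover and the gaps from H3K4me3 peaks to the other lists were checked against bedtools 2.31.1, with 0 peaks differing. Gaps between H3K4me3 peaks were not part of this check. The standardised difference was tested on simulated data. Classes were standardised over 10 width bins. Sites were named by fixed ranks: the 5 widest, widest lost, narrowest kept, farthest from and nearest to a factor, and most crowded. The members, classes and ranks were chosen with earlier results of these data known. The joined H3K4me3 peaks and the splits by neighbour, factor distance and DMSO peak width were added after seeing the data. No genome or annotation of hg19 was used here, so no sequence or gene is named and the planned gene lists and motifs were not run.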

Additional observations from a re-analysis of the deposited data

How the results depend on the processing

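No paired analysis was possible because each group has 1 library. Of 63 values under alternatives, 36 stayed within the interval of the reported value, 26 moved out of it and 1 reversed. The share kept (78.2%) was 64.5% with 50% of the promoter covered in ACBI, 84.1% with an ACBI peak within 1 kb, 82.4% with 50% covered in DMSO, 74.9% with H3K27ac peaks of at least 500 bp, 83.25% with equal numbers of the widest H3K27ac peaks, 75.8% under 2000 bp of H3K4me3, 80.1% without a factor peak within 1 kb, 81.4% with H3K4me3 peaks joined within 1 kb and 81.5% for lone peaks. The difference between the widest and narrowest of the 4 width groups (27.1 points) was 13.1 with 50% covered, 10.9 with an ACBI peak within 1 kb, 30.96 for lone peaks and 32.97 with the widest member of each DMSO peak. Members minus both factors (4.14 points) was 7.44 with 50% covered and 6.86 with H3K27ac peaks of at least 500 bp. It was 2.39 (0.435 to 4.34) with joined H3K4me3 peaks, 2.004 (-0.02 to 4.03) for lone peaks and -1.14 (-2.85 to 0.567) at the same DMSO H3K27ac widths. At those DMSO widths, members minus RUNX1 only (-4.03 points) was -6.59. The median ACBI cover (71.4%) was 76.8% with 50% covered in DMSO, 73.8% with H3K27ac peaks of at least 500 bp, 76.4% with equal numbers, 67.9% with joined and 68.0% with lone H3K4me3 peaks. A factor peak lay within 10 kb of 39.7% of members under 2000 bp (37.6% of all). Another H3K4me3 peak lay within 10 kb of 48.7% of members, 46.97% between midpoints, 51.6% under 2000 bp and 29.4% among peaks of at least 500 bp. The cause was not tested. The cover has no value under the 2 other rules for a kept peak. The joined, lone, per-peak and DMSO-width settings were chosen after seeing the data.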

Other observations

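The factor-free promoters were spread over all chromosomes. Among the autosomes and X, their share of the acetylated H3K4me3 peaks under 3000 bp was highest on chromosome X (163 of 373, 43.7%, exact 95% interval 38.6 to 48.9), followed by chromosomes 7 (40.1%, 36.0 to 44.4) and 6 (39.3%, 35.4 to 43.2). It was lowest on chromosome 21 (22 of 119, 18.5%, 11.96 to 26.6), beside 34.1% over all chromosomes. The share kept in ACBI ran from 60.0% on chromosome 18 (27 of 45, 44.3 to 74.3) to 95.5% on chromosome 21 (21 of 22, 77.2 to 99.9), and was 87.2% on chromosome 2 (212 of 243, 82.4 to 91.2). These were read off among 24 chromosomes after the values were seen and no test was made.

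In each class, the nearest other H3K4me3 peak was of the same class more often than the share of that class among all H3K4me3 peaks. It was a factor-free promoter at 38.3% of members, against 30.2% of peaks with RUNX1 only and 24.7% of those with both factors. Factor-free promoters were 29.5% of all H3K4me3 peaks. The same-class share was 32.2% for RUNX1 only (26.7% of all H3K4me3 peaks), 10.6% for BRG1 only (5.01%) and 31.9% for both factors (25.1%). The pattern is thus not particular to the factor-free promoters. Neighbours under 1 kb apart are counted in these shares, and whether they belong to the same promoter was not tested.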
